A study of Mus musculus with 2 samples.

Results

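Of the 65789 open regions called on chromosomes 1 to 19 in mouse common myeloid progenitors, 16663 (25.3%, exact 95% interval 24.996 to 25.7) were intergenic and lay more than 5 kb and at most 100 kb from the nearest protein-coding start. These intergenic regions are the subject here. They were chosen by position alone: the summit had to lie outside every GENCODE M21 protein-coding gene body and over 1 kb from every long non-coding RNA (lncRNA) start. The assay was ATAC-seq, which reads accessible DNA from the places where the Tn5 transposase inserts adapters, on 2 libraries of 50000 cells each. Both libraries formed 1 group of primary common myeloid progenitors from C57BL/6J male mice aged 5 to 6 weeks, with no treatment and no control group. The labels give both libraries the same donor and do not say that they came from separate animals, nor how the cells were sorted, so differences between the replicates may be technical. The regions come from the conservative list of peaks that passed the irreproducible discovery rate (IDR) across both replicates, with overlapping peaks merged. Each replicate also has its own IDR-thresholded list, with 46420 merged regions in replicate 1 and 36740 in replicate 2.

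Common myeloid progenitors are bone marrow cells that give rise to granulocytes, monocytes, red cells and platelets. Intergenic open regions include enhancers, which bind lineage transcription factors such as PU.1, RUNX1, C/EBPα and GATA2, and sites bound by CTCF, the factor that anchors chromatin loops and insulates neighbouring domains. An enhancer can act over long distances and skip genes, so the nearest gene is a label of position and not a known target.

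The following windows of 101 bp, centred on summits, are shown because the results below turn on their motif content or their likeness to each other. They are plus-strand RefSeq GRCm38.p6 (mm10) sequence in lower case, with each whole match to a searched motif in capitals. The first set are intergenic regions at positions known as enhancers of blood transcription factors, each named by the gene and its offset in kb. The windows are chr7:35156598-35156698 for Cebpa +37, chr2:103893895-103893995 for Lmo2 -75, chr9:32556499-32556599 for Fli1 -15, chr10:21241954-21242054 for Myb -81, chr10:21228614-21228714 for Myb -68 and chr14:54705950-54706050 for Cebpe +6.
Cebpa +37: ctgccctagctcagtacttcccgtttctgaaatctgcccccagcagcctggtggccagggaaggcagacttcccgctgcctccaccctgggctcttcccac
Lmo2 -75: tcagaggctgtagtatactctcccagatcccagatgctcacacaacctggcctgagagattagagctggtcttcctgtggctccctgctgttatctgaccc
Fli1 -15: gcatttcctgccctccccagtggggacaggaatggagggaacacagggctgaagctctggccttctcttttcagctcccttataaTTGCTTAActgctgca
Myb -81: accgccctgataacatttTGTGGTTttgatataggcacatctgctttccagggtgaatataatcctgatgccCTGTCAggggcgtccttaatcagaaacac
Myb -68: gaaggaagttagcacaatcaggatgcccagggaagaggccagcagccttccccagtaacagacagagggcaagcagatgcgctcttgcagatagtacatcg
Cebpe +6: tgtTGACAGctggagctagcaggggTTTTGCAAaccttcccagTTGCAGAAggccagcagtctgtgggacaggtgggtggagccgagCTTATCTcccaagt

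The second set holds the strongest intergenic region with a match to CTCF, the strongest with adjoining PU.1 and AP-1 matches, the strongest with an NF-E2 match, each among those in both own lists with under 50% of the window in repeats, and the strongest CTCF-matched region among the 24 nearest to S1pr1. They were chosen after their values were seen. They lie at chr9:30480610-30480710 near Snx19, chr1:14925009-14925109 near Trpa1, chr2:90612328-90612428 near Ptprj and chr3:115661187-115661287 near S1pr1.
Snx19, CTCF: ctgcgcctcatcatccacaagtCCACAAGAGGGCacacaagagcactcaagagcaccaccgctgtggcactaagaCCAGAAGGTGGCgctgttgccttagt
Trpa1, PU.1 and AP-1: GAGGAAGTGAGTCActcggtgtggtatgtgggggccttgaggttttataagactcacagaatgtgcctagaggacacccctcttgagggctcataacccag
Ptprj, NF-E2 and AP-1: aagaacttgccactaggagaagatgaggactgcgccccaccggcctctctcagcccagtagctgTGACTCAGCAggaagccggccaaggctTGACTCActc
S1pr1, CTCF: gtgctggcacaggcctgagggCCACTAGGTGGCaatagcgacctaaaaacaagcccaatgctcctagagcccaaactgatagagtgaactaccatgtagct

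The last pair, from the ranks just below the strongest intergenic region, shows a sequence that is present in several places on chromosome 8. They lie at chr8:20424763-20424863, nearest to Gm15319, and chr8:20550165-20550265, nearest to Gm21119. The capitals mark a KLF match, read on opposite strands.
Gm15319: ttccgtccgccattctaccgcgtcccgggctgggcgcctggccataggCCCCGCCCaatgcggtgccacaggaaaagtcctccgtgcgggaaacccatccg
Gm21119: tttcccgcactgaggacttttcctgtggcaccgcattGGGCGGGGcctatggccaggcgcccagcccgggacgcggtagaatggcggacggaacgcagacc

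The density of intergenic open regions fell with distance from genes. The territory that meets the rule covers 577 Mb, which is 24.1% of the sequenced bases of these chromosomes, and held 28.9 regions per Mb. Within it, 2741 regions lay 5 to 10 kb from a start, 4018 at 10 to 20 kb, 5986 at 20 to 50 kb and 3918 at 50 to 100 kb. Per Mb of the territory at each distance these came to 37.1, 35.0, 29.2 and 21.3. The density at 5 to 10 kb was 1.74 times that at 50 to 100 kb, with an exact 95% interval of 1.66 to 1.83 that covers counting error only. In replicate 1's own list the densities from near to far were 25.3, 24.1, 19.8 and 14.3 per Mb. In replicate 2's own list they were 19.1, 18.6, 15.2 and 11 per Mb. Both replicates thus had the same order, and in both the intervals of the nearest 2 classes overlapped.

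**Figure D1:**
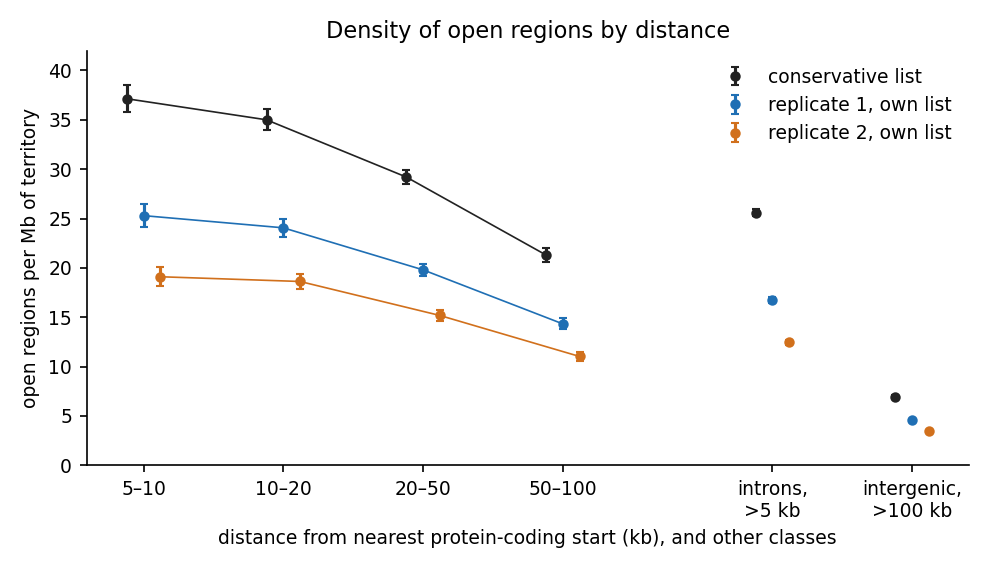
Open regions per Mb of territory at 4 distances from the nearest protein-coding start, and in introns beyond 5 kb and intergenic sequence beyond 100 kb, in the conservative list and in each replicate's own list. Bars are exact Poisson 95% intervals over regions. The conservative list has 37.1 per Mb at 5 to 10 kb, 21.3 at 50 to 100 kb and 6.92 beyond 100 kb.

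Set against other classes, the intergenic territory at 5 to 100 kb held 28.9 regions per Mb, against 25.6 in introns more than 5 kb from a start, a ratio of 1.13 (1.11 to 1.15). Intergenic sequence beyond 100 kb held 6.92 per Mb, so the ratio to it was 4.17 (4.04 to 4.31). The regions nearest to each limit had these signals. Just inside 5 kb, those 5001 bp from Fgfr3 and 5002 bp from Aldoart2 had 8.23 and 9.77, and just outside those 5000 bp from Bmpr1a and 4999 bp from Nt5c2 had 8.32 and 11.6. Just inside 100 kb, those 99999 bp from Ttc29 and 99993 bp from Thbs1 had 7.79 and 7.24, and just outside those 100004 bp from Cypt12 and 100030 bp from Ralgapa2 had 7.98 and 9.10.

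Over all distances, intergenic regions showed no lean to either side of genes. Of the 16663, 65.7% lay upstream of the nearest start, while 65.9% of the territory did. The upstream density was 0.994 times the downstream density (0.962 to 1.03). By distance the sides differed in opposite ways. At 5 to 10 kb the upstream density was 38.6 per Mb, against 32.3 downstream. At 50 to 100 kb the upstream density was 20.2 per Mb, against 23.0 downstream. Each replicate's own list had the same order of sides at both distances: 26.2 against 22.4 per Mb in replicate 1 and 20.01 against 16.2 in replicate 2 at 5 to 10 kb, and 13.5 against 15.6 in replicate 1 and 10.5 against 11.9 in replicate 2 at 50 to 100 kb.

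The deposited signal, the authors' value for each peak on a scale that is not stated, did not follow the fall in density. Its median was 8.54 over the intergenic regions, a value that many regions share exactly, with a range of 1.89 to 45.6. By distance the medians were 8.30, 8.54, 8.61 and 8.54 from near to far. Introns beyond 5 kb had a median of 8.25, intergenic regions beyond 100 kb 8.91 and promoter regions 9.28. The intergenic regions were also close to introns in width, with medians of 458 and 460 bp, and narrower than promoter regions at 768 bp. The sparse regions far from genes were therefore not weaker by this measure than the dense ones near them.

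Summit windows were richer in G and C and poorer in repeats than the intergenic territory as a whole. The median GC content of the 101 bp windows was 51.5%, against 42.7% for the whole intergenic territory. Repeat-masked bases made up 9.38% of the intergenic windows on average, against 38.3% of the territory, and 65.8% of the windows held none. At least 50% of the window was masked in 4.07% of the intergenic regions, against 3.17% of all regions.

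Some intergenic regions lay at starts that the rule does not know. Within 1 kb of a RefSeq transcript start lay 771 of them (4.63%), of which 653 were nearest to a non-coding RNA start and 118 to an mRNA start. The share was 24.9% over all regions, promoters included, 3.33% in introns beyond 5 kb and 2.79% in intergenic regions beyond 100 kb. The median signal of the 771 was 8.54, the same tied value as that of the other intergenic regions, so equal medians need not mean like distributions. In both replicates' own lists were 56.8% of them, against 45.8% of the others. A further group lay among antigen receptor genes, whose segments are not annotated as protein-coding. Within 5 kb of an immunoglobulin or T cell receptor segment were 38 intergenic regions (0.228%), 23 of them on chromosome 6. That share was below the 0.316% of all regions and the 3.30% of intergenic regions beyond 100 kb. lncRNA gene bodies held 1801 (10.8%), against 9.24% of all regions and 16.9% of intergenic regions beyond 100 kb.

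Recurrence between the replicates was assessed next. Of the 16663 intergenic regions of the conservative list, 65.4% were in replicate 1's own list, against a background of 67.9% of all regions. In replicate 2's own list were 51.5%, against a background of 54.9%. Both lists held 46.3% (background 50.6%), replicate 1's list alone 19.1% (17.2%), replicate 2's list alone 5.16% (4.27%) and neither list 29.5% (27.8%). The shares of the intergenic regions were thus near those of all regions, and a little lower where both lists were needed. The pseudoreplicated lists, which are made from a single library each and are longer, held 98.2% and 94.7% of them in replicates 1 and 2, against backgrounds of 98.2% and 95.2%.

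Presence in both own lists rose with signal, over 10 equal groups of the intergenic regions ordered by it. In the weakest group, at signals of 1.89 to 5.48, 6.54% were in both own lists and 75% in neither. In the sixth group, at 8.54 to 9.36, 47.1% were in both. In the strongest group, at 13.5 to 45.6, 96.9% were in both and none of 1667 in neither. Of the 4908 regions in neither own list, 3679 fell in the weakest of 3 equal signal classes. Of those in 1 list, most for replicate 1 (1675 of 3177) and the largest part for replicate 2 (405 of 860) fell in the middle class.

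Taken from each replicate's own list, recurrence differed by under 2 percentage points between distances. Of the 11323 intergenic regions of replicate 1, 7754 (68.5%) were found in replicate 2's list, against 72.3% of all regions of replicate 1. Of the 8688 of replicate 2, 7775 (89.5%) were found in replicate 1's list, against 91.8% of all regions of replicate 2. From near to far the shares were 68, 69.6, 68.2 and 68% for replicate 1 regions and 89.9, 90.3, 89.2 and 88.8% for replicate 2 regions. The difference between 5 to 20 kb and 50 to 100 kb missed the threshold from both sides in Fisher's exact test. For replicate 1 regions the log2 odds ratio was 0.06 (95% interval -0.08 to 0.21, adjusted p = 0.623) and for replicate 2 regions 0.20 (-0.05 to 0.46, adjusted p = 0.361) by Fisher's exact test, adjusted by Benjamini-Hochberg over 6 tests. Within 3 equal classes of signal the Mantel-Haenszel values were larger, at 0.17 (0.0085 to 0.33) and 0.26 (0.00052 to 0.53), and neither passed its adjusted threshold although both intervals lay above 0. These tests treat regions as units and cover counting error only.

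**Figure D2:**
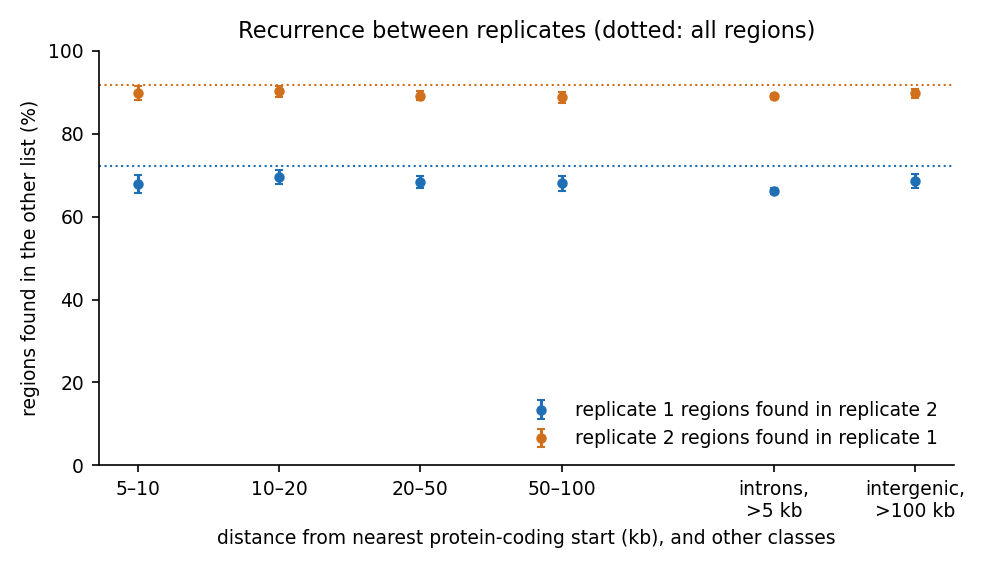
Percent of regions in a replicate's own list that meet a region in the other replicate's list, by distance from the nearest protein-coding start and in introns and remote intergenic sequence. Bars are exact binomial 95% intervals and dotted lines give the share over all regions. At the 4 distances replicate 1 regions lie between 68 and 69.6% and replicate 2 regions between 88.8 and 90.3%.

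Against introns the difference was small. Replicate 1's intergenic regions recurred at 68.5%, against 66.2% of its intronic regions, a log2 odds ratio of 0.15 (0.07 to 0.23) that passed Fisher's exact test (adjusted p = 0.000909). An alternative compared the classes within 3 equal groups of signal. The Mantel-Haenszel log2 odds ratio was then 0.085 (-9.8e-05 to 0.17), an interval that reached 0, and did not pass its adjusted threshold. Replicate 2's intergenic regions recurred at 89.5%, against 89.0% of its intronic regions, which did not pass Fisher's exact test (adjusted p = 0.623). Against intergenic regions beyond 100 kb the shares were 68.5 against 68.6% for replicate 1 and 89.5 against 89.7% for replicate 2, and neither passed Fisher's exact test (adjusted p = 0.932 and 0.888). Those remote regions had the higher signal, and within the weakest and middle signal classes the intergenic regions had the higher shares. In the weakest class of replicate 1, 44.4% of the intergenic regions recurred, against 37.2% of those beyond 100 kb, in the middle class 67.5 against 62.1%, and in the strongest 91.7 against 91.7%. For replicate 2 the shares were 79.0 against 75.2%, 90.6 against 89.1% and 98.3 against 98.5%. Over all signal classes the Mantel-Haenszel log2 odds ratio over regions was 0.31 (0.18 to 0.45) for replicate 1 and passed its adjusted threshold. For replicate 2 it was 0.24 (0.02 to 0.46) and did not.

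The signal of shared regions ranked alike in both libraries. Over the 7754 intergenic regions of replicate 1 with a partner in replicate 2, the Spearman correlation of signals was 0.844 and the Pearson correlation of log2 signals 0.852. The Spearman value was 0.834 in introns, 0.815 beyond 100 kb and 0.920 at promoters. These are correlations across regions, which share their libraries and are not independent replicates.

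Exact matches to 11 motifs were searched on both strands within 50 bp of each summit. PU.1 was searched as GAGGAAGT, RUNX as TGTGGTT, the GATA factors as AGATAAG, C/EBP as TTGCNNAA, AP-1 as TGANTCA, MEIS as TGACAG and KLF as CCNCNCCC. The longer motifs were CTCF, NF-E2, an E-box and GATA composite that holds most of the GATA motif, and an ETS and IRF composite that holds the ETS core of PU.1. Every NF-E2 match also holds an AP-1 match. A match describes the letters and does not show that a factor was bound.

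CTCF matches were more frequent among the intergenic regions than among all regions and thinned with distance. CTCF was matched in 14.6% of them (14.02 to 15.1), against 10.6% of all regions (10.4 to 10.8), 12% of intronic regions, 9.89% of intergenic regions beyond 100 kb and 2.99% of promoter regions. From near to far the share was 15.8, 16.5, 14.9 and 11.3%. In replicate 1's own list these were 16.9, 18, 15.3 and 12.3%, and in replicate 2's 14, 15.2, 14 and 10.2%. In each list the share was lowest at 50 to 100 kb.

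RUNX, PU.1 and AP-1 ran the other way with distance. RUNX, the motif of Runx1 and Runx3, was matched in 7.26, 8.04, 8.49 and 9.01% of regions from near to far and in 8.30% of all intergenic regions, against 7.29% of all regions. PU.1, the master regulator of myeloid cells encoded by Spi1, was matched in 5.80, 6.79, 6.77 and 7.17%, and in 6.71% of all intergenic regions, against 5.99% of all regions. AP-1, bound by Fos and Jun proteins, was matched in 5.25, 5.57, 6.40 and 6.84%, and in 6.12% of all intergenic regions, against 4.93% of all regions. Promoter regions had few of these motifs, at 2.23% for RUNX, 2.59% for PU.1 and 2.11% for AP-1. Set against introns and intergenic regions beyond 100 kb, the intergenic regions were lower for RUNX, at 8.30% against 9.24 and 10.5%, and for PU.1, at 6.71% against 7.33 and 8.17%. For AP-1 they had 6.12%, against 5.72 and 6.31%. In both replicates' own lists these 3 motifs had a higher share at 50 to 100 kb than at 5 to 10 kb, though the intervals at these distances overlapped in each list for every one of them but PU.1 in replicate 1.

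**Figure D3:**
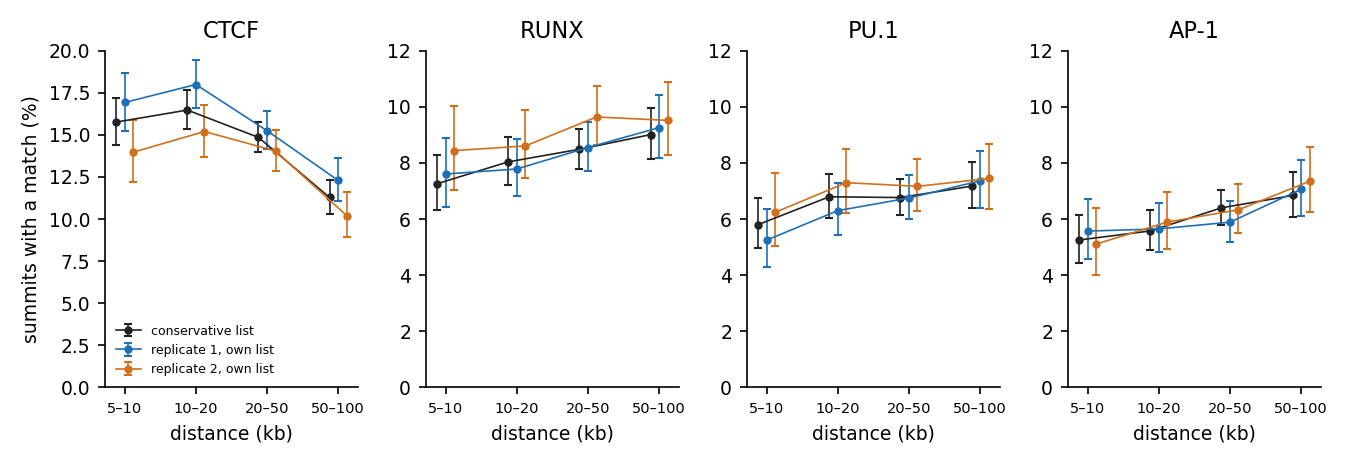
Percent of intergenic summits with a CTCF, RUNX, PU.1 or AP-1 match by distance from the nearest protein-coding start, in the conservative list and each replicate's own list, with exact binomial 95% intervals. The CTCF panel has a longer axis. CTCF is matched in 15.8% at 5 to 10 kb and 11.3% at 50 to 100 kb. RUNX, PU.1 and AP-1 go the other way, at 7.26, 5.80 and 5.25% near and 9.01, 7.17 and 6.84% far.

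Like PU.1, the other motifs but KLF differed by less than 1 percentage point between intergenic and all regions. C/EBP was matched in 5.76 against 5.13%, GATA in 3.48 against 3.11%, MEIS in 9.18 against 9.24%, the ETS and IRF composite in 1.27 against 1.09%, NF-E2 in 0.504 against 0.47% and the E-box and GATA composite in 0.594 against 0.613%. By distance from near to far, C/EBP stood at 5.14, 6.12, 5.65 and 5.97% and GATA at 3.28, 3.48, 3.16 and 4.11%. MEIS stood at 9.49, 9.51, 8.12 and 10.2%, and the ETS and IRF composite at 0.912, 1.37, 1.29 and 1.38%. Each of these was higher at 50 to 100 kb than at 5 to 10 kb but did not rise at every step, and neither did PU.1. A higher share far from genes was thus not particular to RUNX, PU.1 and AP-1. KLF, a GC-rich motif common at promoters, was matched in 13.3% of intergenic regions against 19.1% of all regions. At least 1 motif was matched in 55.3% of intergenic regions, against 54.2% of all regions. PU.1 and RUNX matches met in the same window in 69 intergenic regions (0.414%), a share that was not set against all regions.

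Regions with a CTCF match were narrow, strong and unevenly shared between the libraries. Their median width was 352 bp, against 478 bp for the other intergenic regions, and their median signal 9.09, against 8.38. Despite that signal, 43.8% of them were in both own lists, against 46.7% of the others. Replicate 1's own list held 69.4% of CTCF-matched regions, against 64.7% of the others, and replicate 2's held 48.5%, against 52.0%. At like signal the gap was wide in replicate 2. Among the middle class of the intergenic regions by signal, replicate 2's list held 38.1% of CTCF-matched regions, against 50.8% of the others, while replicate 1's held 71.0% against 71.8%. In the strongest class replicate 2's list held 81.6% against 90.2%, and replicate 1's 94.7% against 96.1%.

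Seen from the lists, regions in replicate 1's list alone had CTCF matches in 19.5%, regions in replicate 2's list alone in 13.1% and regions in both lists in 13.8%. In the strongest signal class these shares were 29.0% of 568 regions, 24.3% of 169 regions and 15.4% of 4759 regions. RUNX matches had another order, at 6.33% of regions in replicate 1's list alone, 10% of those in replicate 2's alone and 9.15% of those in both. For PU.1 the same shares were 5.67, 7.91 and 7.13%. With 1 library on each side no test of libraries was possible.

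**Figure D4:**
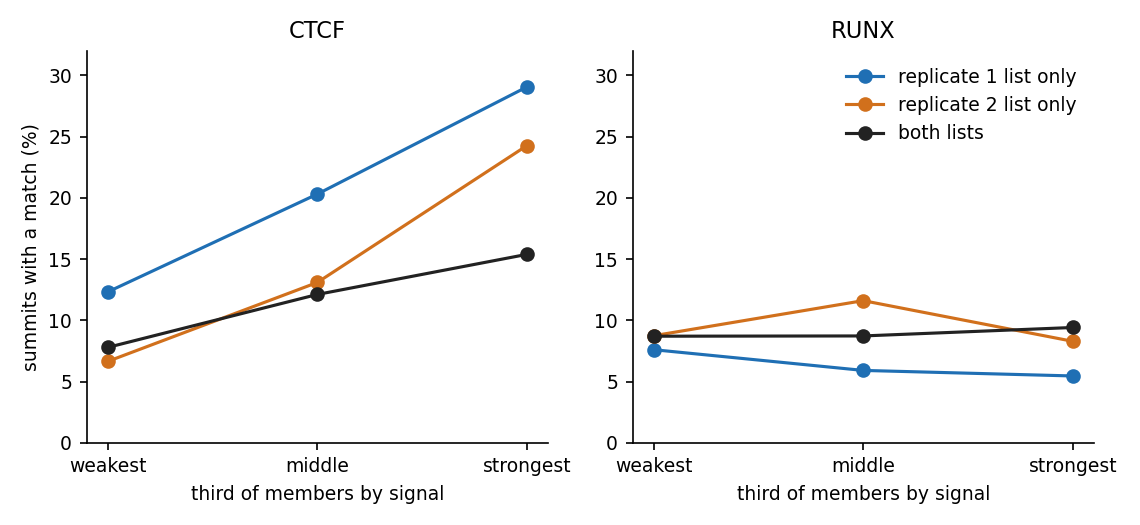
Percent of intergenic summits with a CTCF match (left) or a RUNX match (right) by signal class, for regions in replicate 1's own list only, replicate 2's only or both. In the strongest class CTCF is matched in 29.0% of regions of replicate 1 only, 24.3% of replicate 2 only and 15.4% of those in both.

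The few strongest regions missing from a replicate's own list went the other way. Of the 5 strongest absent from replicate 1's list, 4 have a CTCF match: those nearest to Adcyap1, Ifrd1, Fabp2 and Elmsan1. The first of them, 40.4 kb upstream of Adcyap1, had a signal of 15.8 in the conservative list, 13.7 in replicate 2's own list and 13.2 in replicate 1's pseudoreplicated list. Of the 5 strongest absent from replicate 2's list, 1 has a CTCF match, 44.9 kb downstream of Anxa1. The strongest of them, 94.6 kb upstream of Tank, had a signal of 17.6 in the conservative list, 14.6 in replicate 1's own list and 14.2 in replicate 2's pseudoreplicated list. All 10 were in the pseudoreplicated list of the replicate whose own list lacks them.

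The intergenic regions were spread over many genes. They were nearest to 7009 of 20698 protein-coding genes (33.9%), and 15738 genes have any territory that meets the rule. A single region was nearest to 3194 genes, the median was 2 among genes with any, and 70 genes had at least 10. The 835 genes with at least 5 held 33.1% of all intergenic regions. The median distance from their summits to the next summit of any kind was 6.3 kb, and 19.5% had one within 2 kb. These spacings were not set against a reference, so they do not show whether summits cluster.

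Territory next to genes with an open promoter was denser. Of the intergenic regions, 75% had a nearest gene with an open region within 1 kb of a start, while 56.8% of the territory did. Their density was 38.1 per Mb, against 16.7 per Mb next to genes without one, a ratio of 2.28 (2.20 to 2.36). From near to far the share of intergenic regions was 73.1, 72.9, 75.6 and 77.5%. The share of territory at each distance is not given, so these values show no trend in density. Still, 4167 intergenic regions were nearest to 2042 genes without an open promoter.

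S1pr1, the receptor for sphingosine 1-phosphate that guides exit from lymphoid organs, was nearest to 24 intergenic regions, more than any other gene. Replicate 1's list held 15 of them, replicate 2's 15 and both 12, and 7 lay upstream. The strongest was the CTCF-matched window shown above, with a signal of 14.6 in the conservative list, 13.3 in replicate 1 and 12.3 in replicate 2.

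Zfp217, a zinc finger protein of corepressor complexes, was nearest to 20, of which 18 lay upstream, and had no open region within 1 kb of a GENCODE start. The region 9.05 kb upstream lay within 1 kb of a RefSeq mRNA start of Zfp217. Replicate 1's list held 14 and replicate 2's 11. The gap between Zfp217 and Bcas1 was the fullest of 6139 gaps between genes with a region, with 28 intergenic regions in 199 kb, 15 of them in both own lists. The second fullest, from Haao to Zfp36l2, held 24 in 336 kb.

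Runx3, a RUNX family factor, had 17 (12 in replicate 1's list and 10 in replicate 2's), and Zfp36l2, which promotes decay of mRNAs, had 16 (10 and 7), all 16 downstream. Ier5, Il12a, Klhl25 and Zfp516 had 15 each, with 7 to 12 in replicate 1's list and 7 to 9 in replicate 2's. Next, with 14, the place was shared by 2210010C04Rik, Bhlhe40 and Irf2bp2. Of the 14 around 2210010C04Rik, 12 lay within 5 kb of a T cell receptor segment and only 2 were in both own lists.

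**Figure D5:**
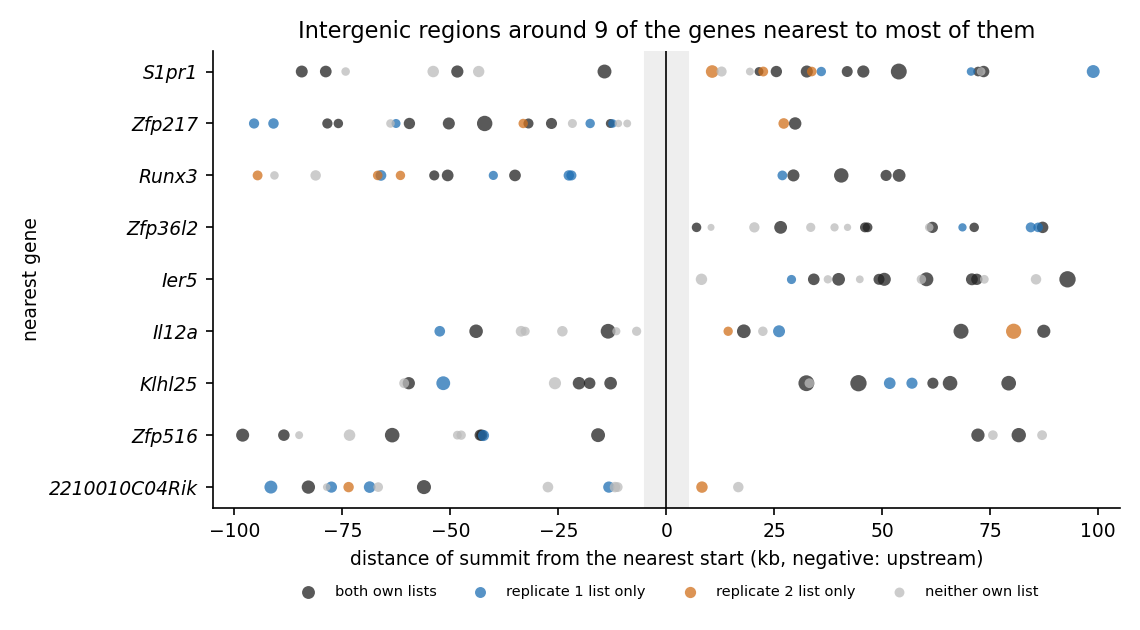
Intergenic regions around 9 of the genes that are nearest to most of them, by distance of the summit from the nearest start in kb, with upstream at the left. Point area follows the signal, colour gives the own lists that hold the region, and the grey band marks the 5 kb left out. S1pr1 has 24 regions on both sides, while all 16 of Zfp36l2 lie downstream.

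As a list, early blood regulators had many intergenic regions for their territory. Of 18 stem and progenitor regulators 13 were nearest to at least 1, against 33.9% of all genes. Among genes with any territory these were 13 of 15, against 44.5%. Their median was 2 against 0 over all genes, and their density 60.6 per Mb of territory against 28.9. Runx1 and Fli1 had 9 each, all upstream, Cd34, a surface marker of progenitors, had 8, and Lmo2 had 7. Erg, Etv6, Myb and Hhex had 5 each. Kit had only 1 in 113 kb of territory, in neither own list. Mecom had none in 60.5 kb, and Flt3 none in only 9.84 kb. Lyl1, Hoxa9 and Zfpm1 have no territory that meets the rule, so they could have none. Of 16 granulocyte and monocyte genes 9 had at least 1, at 59.1 per Mb against 28.9 over all genes, with 7 at the Fc receptor gene Fcgr3, 6 each at Cebpa and Klf4, and none at the granule gene Ctsg, which has 7.71 kb of territory. Irf8, Elane and Prtn3 have no territory that meets the rule, and Spi1 and Mpo only 0.986 and 1.64 kb, so a count of 0 there follows from the rule or nearly so.

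Other lists were mixed. At least 1 intergenic region was nearest to 5 of 11 erythroid genes, against 33.9% of all genes, with 7 at Car2, a carbonic anhydrase. The count was 5 of 11 for megakaryocyte genes, 4 of 10 for mature neutrophil genes and 6 of 9 for macrophage genes. It was 3 of 7 for basophil, eosinophil and mast cell genes, 2 of 7 for B cell genes and 5 of 9 for T cell genes. Stromal and endothelial genes had 5 of 7, with a median of 3, above that of the stem and progenitor regulators. Genes of other tissues had 4 of 10. Densities were 69.6 per Mb at macrophage, 59.1 at megakaryocyte, 57.8 at B cell, 52.6 at mature neutrophil and 44.8 at erythroid genes. They were 37.6 at basophil, eosinophil and mast cell genes, 35.2 at T cell, 31.3 at stromal and endothelial genes and 19.7 at genes of other tissues, each from few genes. Checked against the label, 17 of the 18 stem and progenitor regulators had an open promoter, Kit, Cd34 and Flt3 among them, and Gata2 was the exception. So did 12 of 16 granulocyte and monocyte genes, but not Elane and Prtn3, against 62.0% of all genes. Open promoters were also found at 4 of 7 B cell genes (Pax5, Cd79b, Ebf1 and Rag1), 7 of 9 macrophage genes, 9 of 11 erythroid genes and 9 of 11 megakaryocyte genes. The count was 4 of 9 for T cell genes, 4 of 7 for basophil, eosinophil and mast cell genes, 4 of 7 for stromal and endothelial genes, 1 of 10 for mature neutrophil genes and 1 of 10 for genes of other tissues.

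Of 15 listed enhancer positions of blood genes, 9 fell on intergenic regions, and all 9 were in both own lists, which hold 46.3% of the intergenic and 50.6% of all regions. They ranked between the 36.7 and 82.9 percentiles of all regions by signal, so none was among the strongest. The region at Myb -68, whose window is shown above, was the strongest, with a signal of 12.1, and 10.8 and 11 in replicates 1 and 2. That at Cebpe +6, near the gene of a late granulocyte factor, had 10.5, with 9.87 and 10.2 in replicates 1 and 2, and its window holds a pair of C/EBP matches besides a GATA and a MEIS match. Cebpa +37, an element of the gene for C/EBPα, had 8.78, with 8.29 and 9.23. Gata2 -77 had 8.58, with 8.11 and 8.71, and was the second widest at 1230 bp after Tal1 +40 at 1322 bp.

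The nearest gene was another one for 5 of the 9. Cebpa +37 was nearest to Slc7a10, at 29.7 kb, Gata2 -77 to Rpn1, Tal1 +40 to Pdzk1ip1, and Myb -68 and Myb -81 to Hbs1l. Lmo2 -75, Fli1 -15, Myb -36 and Cebpe +6 were nearest to the gene they are named for. Among the other positions Gfi1 -35, Irf8 -56 and Irf8 +56 fell on intronic regions, Spi1 -14 on a region within 1 kb of an annotated Spi1 start, and Hhex -6 and Hba -26 on no region within 2 kb.

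Several of the very strongest intergenic regions had near copies in the genome or likeness to the mitochondrial genome. All of the 10 strongest were in both own lists, and their signals ran from 45.6 to 25.7. The first, 13 kb upstream of Abcb11, had 45.6 in the conservative list, 39.5 in replicate 1 and 42.3 in replicate 2. Over 129 bp its sequence is identical to the mitochondrial genome. In all, 8 of the 16663 intergenic regions were like the mitochondrial genome over at least 100 bp. For reference, these were 25 of all 65789 regions and 10 of the 5058 intergenic regions beyond 100 kb, so the likeness is not particular to the intergenic regions at 5 to 100 kb. Of the 8, 7 were in both own lists and 6 in the strongest of the 10 signal groups.

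Of the 10 strongest, 6 have other near copies in the genome and 4 lie within 1 kb of a RefSeq start. Those nearest to Sfpq, Zfp677 and Tram1 have neither, nor likeness to the mitochondrial genome. The windows nearest to Gm15319 and Gm21119, with signals of 32.1 and 28.6, match at 100 of 101 bases when one is read on the opposite strand. The 501 bp around each has 7 places on chromosomes 1 to 19 at 90% identity or more, themselves included, and a window nearest to 4930467E23Rik is of the same kind. The windows nearest to Zfp960 and Zfp97, 28.3 and 25.7 in signal, share 74 of 101 bases and lie near RefSeq mRNA starts of Gm51425 and Gm38396. Among the 100 strongest intergenic regions 17 had another copy, against 1 of the 100 at the middle of the signal order. Most of the middle 100 share 1 tied signal of 8.54, within which they were taken in order of position. Only 10 of these 100 were in both own lists, against 33.7 and 47.1% in the fifth and sixth of the 10 signal groups. The middle 100 therefore need not stand for all regions of middle signal. RefSeq starts lay within 1 kb of 9 of the 100 strongest and of 8 of those at the middle. The part that repeated sequence and unlisted starts play in these signals was not tested.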

How the data were processed

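The 2 ATAC-seq libraries were used through 6 deposited peak lists on mm10: the conservative and the series IDR-thresholded lists, and each replicate's IDR-thresholded and pseudoreplicated lists. The aligner, the peak caller and any shift for the transposase offset remain unnamed: not given in the sources used here. The authors deposited a signal for each peak, whose scale is not stated, and −log10 p values. Signal served only to rank and describe regions within a list. Without read counts in these files, sequencing depth could not be read for either library. Each 95% interval therefore reflects the number of regions alone.

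Overlapping peaks on chromosomes 1 to 19 were merged, keeping the strongest summit. Summits were placed against GENCODE M21: promoter within 1 kb of a protein-coding transcript start, lncRNA start within 1 kb, 1 to 5 kb, then gene bodies, then intergenic regions. Territory was the sequence, without unknown bases, that meets the same rule. Regions were shared when they met by 1 bp. Recurrence was compared by two-sided Fisher's exact tests, 6 in all, whose p-values were adjusted by the Benjamini-Hochberg method (threshold 0.05). Copies were sought with BLAST+ 2.17.0 over 501 bp, at 90% identity and 80% coverage. Other steps ran in Python 3.11.15 (pandas 2.3.3 and NumPy 2.4.6, with statistics from statsmodels 0.14.6 and SciPy 1.17.1). Density and side steps were tested on simulated positions. For recurrence only Fisher's exact test was tried, on simulated counts, and the matching of regions between lists was not simulated.

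Named regions and genes were the 10 strongest regions, the 10 genes with most (1 is not reported here), those at listed enhancers, list genes, the 5 strongest absent from each replicate's list, and those at the limits. The intergenic class and all lists were chosen with earlier results of these data known. Of the 13 erythroid genes listed, 11 lie on chromosomes 1 to 19. Alternatives covered the list, the gene starts, lncRNA bodies, the overlap, the motif window and each replicate alone.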

Additional observations from a re-analysis of the deposited data

How the results depend on the processing

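Of 99 values under other settings, 68 kept their direction and side of the threshold or, with no test, stayed within the reported value's interval or replicate spread or, for a count, within 1.5 times of it. The count of genes nearest to a region, 7009, was 4957 without replicate 1, and the cause of each difference below was not tested. No paired analysis was possible because the libraries form 1 group. The share of intergenic regions, 25.3%, was 26.4% in the upper 50% by signal, 24.8% with gene 5′ ends, 22.6% without lncRNA gene bodies, and 24.4% without regions near RefSeq starts, a setting added after seeing the data. It was 23.6 to 24.4% in single replicates. In the upper 50% by signal the near-to-far density ratio was 1.63 and the CTCF share 17%. CTCF was 13.4 to 15.5% in single replicates and 15.6% with windows of 100 bp each side. PU.1 was 6.54 to 7.11% in single replicates and 9.38% in the wider windows. The log2 signal difference to introns was 0.03 in the upper 50%, 0.064 with gene 5′ ends and 0.018 to 0.029 in single replicates. The upstream share was 69.96% with gene 5′ ends. That setting also changes the upstream territory, whose share is not given here, so the value alone shows no lean. For recurrence against introns, the log2 odds ratio was 0.085 within signal classes for replicate 1 and 0.16 with pseudoreplicated lists for replicate 2 (adjusted p = 0.00186 in Fisher's exact test). Against remote regions replicate 1 gave 0.0019 with 50% reciprocal overlap, 0.25 with pseudoreplicated lists, 0.14 with equal numbers and 0.31 within signal classes. Replicate 2 gave 0.28 with pseudoreplicated lists, 0.24 within signal classes and, with equal numbers of strongest regions, -0.46 (adjusted p = 6.54e-07, Fisher's exact test), so the order of these classes depends on the lists. Near against far gave -0.0011 with pseudoreplicated lists (replicate 1) and -0.084 with equal numbers (replicate 2). The Spearman correlation was 0.875 with pseudoreplicated lists and 0.805 with equal numbers.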
